A study of Homo sapiens with 24 samples.

Results

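The genes described here are 10 established targets of the transcriptional coactivators YAP and TAZ: CYR61, CTGF, ANKRD1, THBS1, EDN1, F3, AMOTL1, AMOTL2, LATS2 and AJUBA. They were taken by symbol from a table of 63677 genes, and all 10 were among the 19377 genes that passed the filter on low values, which asked for an RPKM of at least 0.5 in at least 2 of the 24 libraries. AMOTL1 was under that level in every HepG2 library, and EDN1 in every SNU398 library. The list was put together because CYR61, ANKRD1 and THBS1 were higher after treatment in all 3 cell lines of the study. For those 3 genes the drug responses are therefore given as values with no test, and the p-values below belong to the other 7.

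The study treated HepG2, SNU398 and SNU475, established human hepatocellular carcinoma lines, and measured total RNA. Within each line, cells received both drugs (the combination), decitabine at 100 nM daily, GSK-126 at 500 nM daily, or the vehicle DPBS, a phosphate-buffered saline, for 3 days. Decitabine (5-Aza-CdR) is a nucleoside that traps DNA methyltransferases, and GSK-126 inhibits the histone methyltransferase EZH2. HepG2 and SNU398 cells were collected on day 14 and SNU475 cells on day 21. Each of the 12 groups had 2 libraries, A and B, and nothing in the labels says whether these came from separate cultures, so p-values may measure technical spread only. Because the SNU475 cells were collected later, line and day of collection cannot be told apart.

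In the Hippo pathway a kinase cascade, ending in LATS1 and LATS2, phosphorylates YAP (gene YAP1) and TAZ (gene WWTR1) and keeps them out of the nucleus. When the cascade is less active, YAP and TAZ enter the nucleus, bind TEAD factors and raise target genes. These targets include secreted matrix-associated proteins, a nuclear and sarcomeric ankyrin-repeat protein, and inhibitors of YAP itself, which close a feedback loop. In liver the pathway is known for its part in restraining organ size and tumour growth. Several of the same genes also have binding sites for SRF, which works with the actin-regulated coactivators MRTF, and respond to TGF-beta.

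The reads behind the RPKM values of a library numbered 32.6 to 60.37, in units of 1e6 reads, and 57.2% to 69.5% of them lay in genes. The combination libraries of HepG2 were the shallowest. Levels are RPKM (reads per kilobase of exon per 1e6 reads) after scaling each library to a common level. Changes are differences of log2(scaled RPKM + 0.5), with the standard error of the model, and a gene is called changed when its adjusted p from limma is under 0.05. The added 0.5 draws the change of a gene at a low level towards 0. The ratio of group means or the levels themselves are therefore given with some of these changes. Hepatocyte markers summed to 6882 to 12170 RPKM in HepG2 libraries, to 0.592 to 49.0 in SNU398 and to 1.30 to 60.9 in SNU475, so SNU398 and SNU475 lacked most of that programme. The highest of these sums outside HepG2, in the A libraries of SNU475 DPBS and SNU398 decitabine, stood beside sums of 3.50 and 0.894 in their B libraries. SNU398 decitabine A, with the sum of 49.0, had 12.1 RPKM of CTGF and 2.62 of ANKRD1, and its B library, with 0.894, had 10.7 and 2.40. As these are bulk samples, fewer cells expressing a gene and less RNA per cell cannot be told apart.

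The promoters of CTGF, ANKRD1, THBS1 and F3 are shown because they hold, within the window searched, the DNA elements of the factors that YAP and TAZ work with. Promoter windows from RefSeq (GRCh38.p14, 250 bases before to 50 after the transcription start) were found for 9 of the 10 genes, all but CYR61. Only the first window listed for a gene was searched, and any other transcription starts were not. They were searched on both strands for the TEAD element GGAATG, the AP-1 element TGANTCA and the CArG box to which SRF binds; no match overlapped another. The 250 bases before the start are printed on the strand of the gene, 5′ to 3′, with the TEAD and AP-1 elements in capitals. The CTGF sequence is chr6:131951373-131951622 and the ANKRD1 sequence chr10:90921088-90921337, both minus strand. The THBS1 sequence is chr15:39580829-39581078, plus strand, and the F3 sequence chr1:94541760-94542009, minus strand.
CTGF: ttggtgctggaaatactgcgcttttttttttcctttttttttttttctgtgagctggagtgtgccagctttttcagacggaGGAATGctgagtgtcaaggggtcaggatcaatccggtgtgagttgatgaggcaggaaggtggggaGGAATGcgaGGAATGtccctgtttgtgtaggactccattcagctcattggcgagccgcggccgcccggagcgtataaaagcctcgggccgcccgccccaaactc
ANKRD1: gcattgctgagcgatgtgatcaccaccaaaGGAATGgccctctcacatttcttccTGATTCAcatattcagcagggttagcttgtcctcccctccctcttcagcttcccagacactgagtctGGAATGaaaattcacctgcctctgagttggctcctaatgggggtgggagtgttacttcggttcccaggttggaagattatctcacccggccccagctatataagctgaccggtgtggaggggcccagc
THBS1: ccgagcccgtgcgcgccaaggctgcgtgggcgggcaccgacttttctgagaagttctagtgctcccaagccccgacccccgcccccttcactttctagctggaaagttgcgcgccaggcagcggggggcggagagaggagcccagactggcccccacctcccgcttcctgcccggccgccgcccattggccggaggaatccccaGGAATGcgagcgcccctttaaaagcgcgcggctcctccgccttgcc
F3: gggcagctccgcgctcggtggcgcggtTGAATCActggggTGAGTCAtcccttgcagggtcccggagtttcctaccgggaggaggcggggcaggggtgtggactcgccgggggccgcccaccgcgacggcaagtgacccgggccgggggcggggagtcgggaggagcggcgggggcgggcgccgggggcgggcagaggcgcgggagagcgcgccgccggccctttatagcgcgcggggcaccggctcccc

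CTGF held 3 TEAD elements, beginning at positions -169, -104 and -95 from the transcription start. ANKRD1 held 2, at -220 and -128, and an AP-1 element at -195 between them. THBS1 held 1 TEAD element at -46 and LATS2 held 1 at 10 bases into the transcript. F3 held 2 AP-1 elements, at -223 and -210, and no TEAD element. In all, 4 of the 9 windows had a TEAD element, against 14.03% of 35116 RefSeq promoters of the same length, and 2 had an AP-1 element, against 7.71%. None of the 9 had a CArG box, which 1.29% of all promoters had. CpG dinucleotides, the substrate of DNA methyltransferases, numbered 38 in the F3 window, 33 in AMOTL1, 29 in LATS2 and in THBS1, 27 in AJUBA, 15 in CTGF, 13 in EDN1, 5 in ANKRD1 and 1 in AMOTL2, with a median of 14 over all promoters. These matches describe the letters only and show neither binding nor methylation. Whether each window lies at the start of the RNA measured here was not checked.

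**Figure D1:**
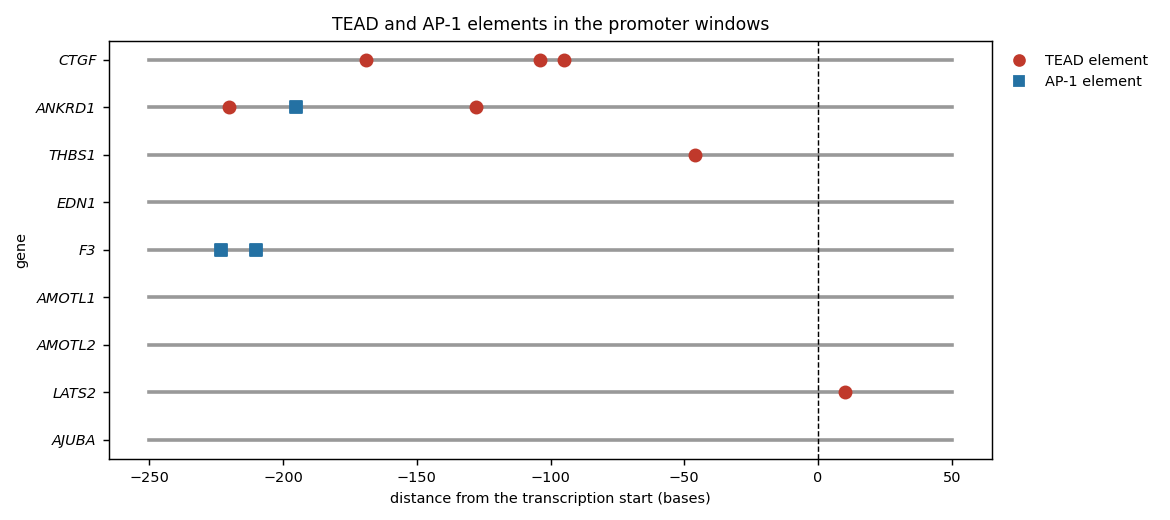
Positions of TEAD elements (circles) and AP-1 elements (squares) in the promoter windows of 9 YAP target genes, as the distance in bases of the first base of each element from the transcription start (dashed line). CTGF has 3 TEAD elements and ANKRD1 has 2 with an AP-1 element between them, while EDN1, AMOTL1, AMOTL2 and AJUBA have neither kind in the window searched.

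In DPBS libraries, most of these genes were higher in SNU475 than in the other lines. Of the 10 genes, 9 were higher in SNU475 than in HepG2, where 42.4% of all genes tested were called higher, and 8 of them were at least 2-fold higher, where 17.8% of all genes were. Set against SNU398, all 10 were higher in SNU475 (40.0% of all genes) and 9 at least 2-fold (17.2%). AJUBA, a LIM-domain protein that restrains the LATS kinases, was the 1 gene called lower in SNU475 than in HepG2 (36.9% of all genes were): it stood at 12 and 11.1 RPKM in SNU475 DPBS libraries, against 35.3 and 34.5 in HepG2 DPBS libraries (log2 difference -1.56, SE 0.03, adjusted p 9.2e-16).

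CYR61, a secreted matrix-associated protein of the CCN family (ENSG00000142871, hg19 chromosome 1, 86046444 to 86049645), had 189 and 191 RPKM in SNU475 DPBS libraries, 7.74 and 8.10 in SNU398 and 5.14 and 5.63 in HepG2. Its relative CTGF (ENSG00000118523, chromosome 6, 132269316 to 132272513) had 174 and 169 RPKM in SNU475, 5.71 and 5.80 in SNU398 and 84.6 and 82.8 in HepG2. The lines thus did not keep one order: HepG2 lay between SNU475 and SNU398 in CTGF and below both in CYR61. EDN1, which encodes the vasoconstrictor peptide precursor of endothelin-1 (ENSG00000078401, chromosome 6, 12290596 to 12297427), had 11.1 and 10.5 RPKM in SNU475 and 0.159 and 0.181 in HepG2. In SNU398 it had 0.0494 and 0.0225, which rest on 7 and 3 reads. AMOTL1, a scaffold protein that binds YAP and holds it at cell junctions (ENSG00000166025, chromosome 11, 94439597 to 94609918), had 10.9 and 10.5 RPKM in SNU475, 2.82 and 2.90 in SNU398 and 0.0189 and 0.0274, or 9 and 12 reads, in HepG2.

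SNU398 against HepG2 gave a mixed picture. Of the 10 genes 2 were higher in SNU398 (40.0% of all genes), namely CYR61 (log2 difference 0.52) and AMOTL1 (2.68). Another 5 were lower (36.5% of all genes): CTGF (-3.75), ANKRD1 (-3.55), AJUBA (-2.28), THBS1 (-0.88) and EDN1 (-0.32). The added 0.5 RPKM shrinks the differences of EDN1 and AMOTL1. EDN1 averaged 0.0359 RPKM in SNU398 and 0.170 in HepG2, and AMOTL1 averaged 2.86 and 0.0231. AMOTL2, LATS2 and F3 were not called, with adjusted p of 0.063, 0.21 and 0.54. This last part depends on the scaling, which moved the median gene by more than these differences: without scaling the median of all genes was 0.22 rather than 0.01, and LATS2 was called 0.26 higher in SNU398 where it had been 0.06 lower (-0.06). AMOTL2 (0.41, adjusted p 4.4e-07) and F3 (0.30, adjusted p 0.0019) were then also called higher in SNU398, and with quantile normalization AMOTL2 was (0.20, adjusted p 0.0003). Without the B library of HepG2 DPBS, LATS2 was called lower in SNU398 (-0.13, adjusted p 0.0038).

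**Figure D2:**
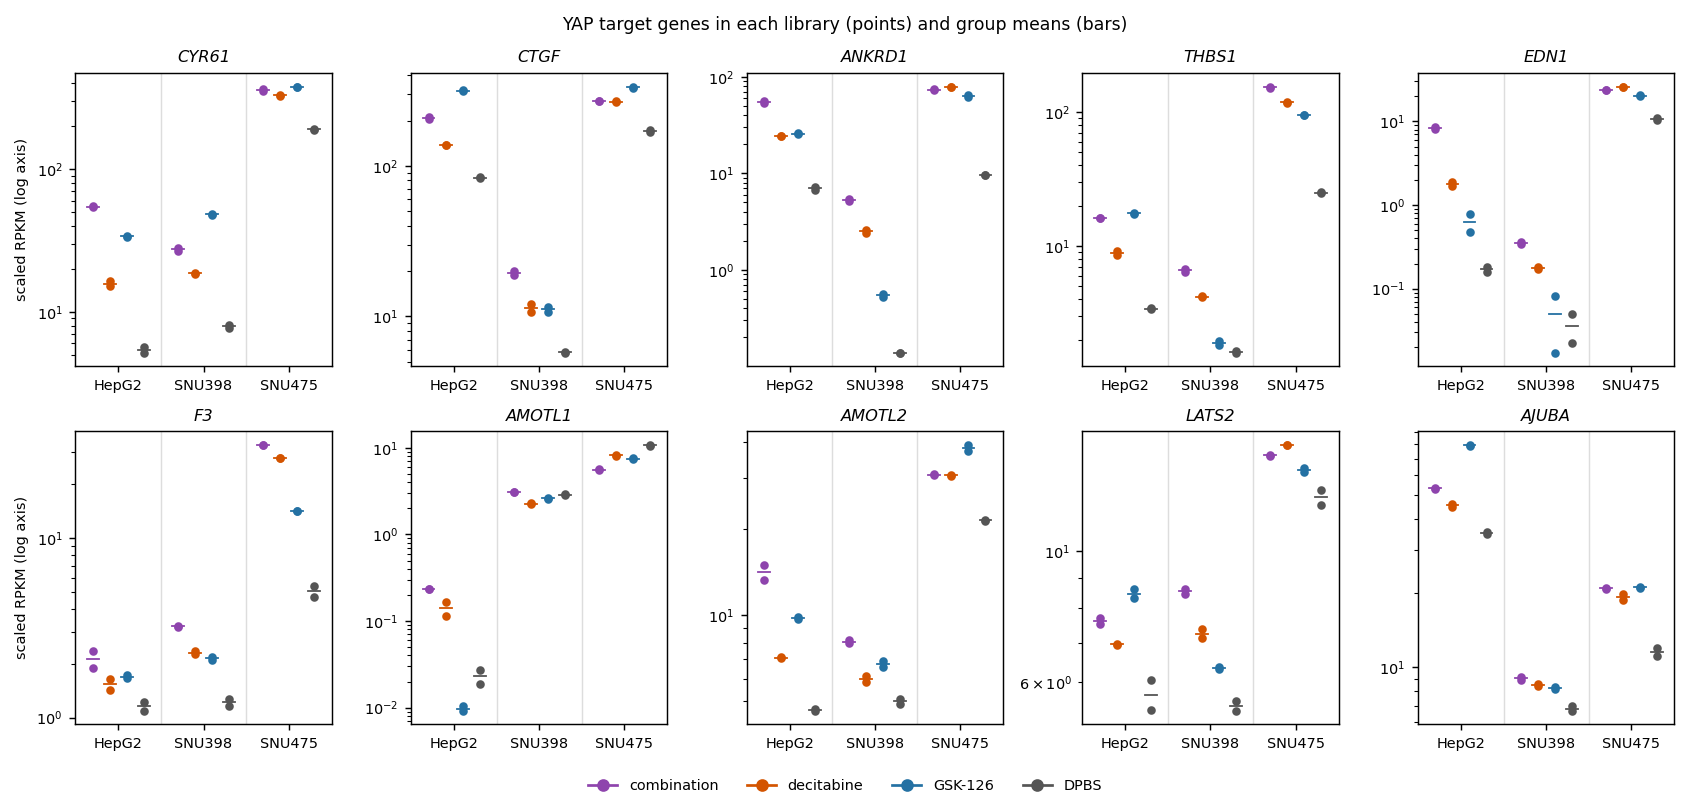
Scaled RPKM (log axis) of the 10 YAP target genes in each of the 24 libraries, by line and treatment, with a bar at the mean of each group of 2. SNU475 libraries are the highest in most panels, AJUBA is highest in HepG2, and AMOTL1 is the gene whose SNU475 libraries lie below DPBS after every treatment.

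Under the combination, all 7 genes that are tested were called higher than DPBS in HepG2, where 40.6% of all genes were called higher. In SNU398 6 of the 7 were called higher (28.9% of all genes), and in SNU475 6 were higher (25.3%) and 1, AMOTL1, was lower (29.6% of all genes were lower). At least 2-fold changes were fewer: 3 of the 7 in HepG2, against 6.44% of all genes higher by that much, 2 in SNU398, against 1.59%, and 2 in SNU475, against 1.96%. This cut applies to the log2 change with 0.5 RPKM added. AMOTL1 in HepG2 and EDN1 in SNU398 fell under it, though their ratios of means to DPBS were 10.1 and 9.79. With decitabine alone 7, 6 and 6 of the 7 were higher in HepG2, SNU398 and SNU475, where 35.9%, 23.4% and 24.2% of all genes were. With quantile normalization AMOTL1 (0.05, adjusted p 0.26) and F3 (0.10, adjusted p 0.32) in HepG2 and EDN1 in SNU398 (0.20, adjusted p 0.095) lost that call, and EDN1 also lost it without the B library of DPBS (0.30, adjusted p 0.059). AMOTL1 was the 1 gene called lower with decitabine in SNU398 and in SNU475, where 15.4% and 27.3% of all genes were lower. With GSK-126 alone 6, 5 and 6 were higher, against 31.0%, 30.0% and 21.5% of all genes, and AMOTL1 was again the 1 gene called lower in SNU398 and SNU475 (22.4% and 28.5% of all genes). Nothing about the list is read from these shares, since its members were chosen on the same contrasts. In each line the 3 treatments were set against the same 2 DPBS libraries.

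**Figure D3:**
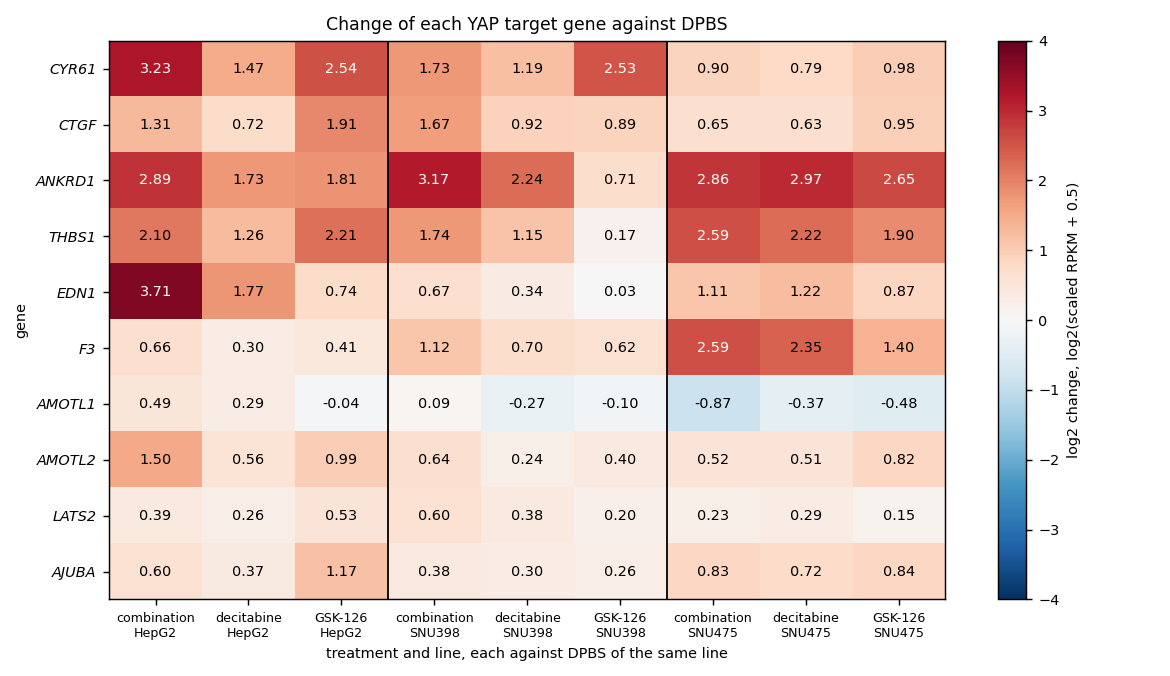
Change of each of the 10 YAP target genes against DPBS of the same line, as a difference of log2(scaled RPKM + 0.5), for the combination, decitabine and GSK-126 in each line. Red is higher and blue lower than DPBS. EDN1 has the highest value, 3.71 with the combination in HepG2, and AMOTL1 the lowest, -0.87 with the combination in SNU475.

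Of the secreted CCN proteins, CYR61 was highest with GSK-126 alone in SNU398 and SNU475 and with the combination in HepG2. In HepG2 it had 54.7 and 54.5 RPKM with the combination, 16.3 and 15.2 with decitabine and 33.3 and 34.1 with GSK-126, against 5.14 and 5.63 with DPBS. SNU398 cells had 28.0 and 26.7 with the combination, 18.5 and 18.8 with decitabine and 48.3 and 48.0 with GSK-126, against 7.74 and 8.10 with DPBS. The SNU398 combination thus lay below GSK-126 alone, by 0.81 on the log2 scale (-0.81), and above decitabine alone (0.54). In SNU475, where CYR61 was already abundant, the values were 351 and 362, 330 and 328, and 374 and 379 in the same order of treatments, against 189 and 191 with DPBS. The 2 libraries of each group stayed close together, and no treated group overlapped DPBS in any line.

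CTGF followed CYR61 only in part. In HepG2 it had 211 and 205 RPKM with the combination, 139 and 138 with decitabine and 315 and 318 with GSK-126, against 84.6 and 82.8 with DPBS. The combination was higher than DPBS there (log2 change 1.31, SE 0.04, adjusted p 1.7e-12) and lower than GSK-126 alone (-0.60, SE 0.04, adjusted p 9.8e-09). In SNU398 CTGF had 18.9 and 20.01 with the combination, 12.1 and 10.7 with decitabine and 11.5 and 10.8 with GSK-126, against 5.71 and 5.80 with DPBS. Here the combination exceeded both decitabine (0.75, SE 0.04, adjusted p 9.1e-08) and GSK-126 (0.78, SE 0.04, adjusted p 1.5e-09), while the single drugs gave overlapping libraries. In SNU475 the combination had 269 and 269 RPKM, decitabine 264 and 268 and GSK-126 337 and 328, against 174 and 169 with DPBS. The combination did not differ there from decitabine beyond the error (0.01, SE 0.04, adjusted p 0.91) and was lower than GSK-126 (-0.30, adjusted p 6.8e-05).

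ANKRD1, a cardiac ankyrin-repeat protein also found in the nucleus (ENSG00000148677, chromosome 10, 92671853 to 92681033), had its highest ratios to DPBS under the combination and under decitabine in SNU398, the line in which it was nearly silent. In SNU398 it had 5.13 and 5.38 RPKM with the combination, 2.62 and 2.40 with decitabine and 0.568 and 0.522 with GSK-126, against 0.138 and 0.139 with DPBS. The ratio of means to DPBS was 38.0 for the combination, 18.1 for decitabine and 3.94 for GSK-126; the DPBS values rest on 19 and 18 reads. In HepG2 the values were 53.6 and 56.0 with the combination, 24.3 and 24.2 with decitabine and 25.3 and 26.0 with GSK-126, against 6.69 and 7.28 with DPBS. In SNU475 they were 73.8 and 73.5, 78.9 and 79.1, and 62.2 and 64.2, against 9.69 and 9.66 with DPBS. The ratio for GSK-126, 3.94 in SNU398, was 6.53 in SNU475. All 3 treatments of SNU475 came out within a narrow range, and decitabine alone had the highest of them.

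THBS1, the matrix glycoprotein thrombospondin-1, which can activate latent TGF-beta (ENSG00000137801, chromosome 15, 39873280 to 39891667), had 151 and 155 RPKM in SNU475 with the combination, 119 and 118 with decitabine and 94.7 and 95.3 with GSK-126, against 24.9 and 25.3 with DPBS. In HepG2 it had 16.2 and 16.2 with the combination, 8.57 and 9.12 with decitabine and 17.7 and 17.5 with GSK-126, against 3.37 and 3.44 with DPBS. In SNU398 it had 6.75 and 6.40 with the combination and 4.22 and 4.17 with decitabine, against 1.65 and 1.59 with DPBS. GSK-126 gave only 1.96 and 1.83 in SNU398, a ratio of 1.17 to DPBS. CYR61 and THBS1 thus parted in SNU398: GSK-126 alone gave the highest CYR61 and the lowest treated THBS1.

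EDN1 showed the highest change of the tested genes, and in HepG2. It had 8.46 and 8.10 RPKM with the combination, 1.89 and 1.68 with decitabine and 0.783 and 0.479 with GSK-126, against 0.159 and 0.181 with DPBS, which rest on 15 and 16 reads. The combination was 48.8 times DPBS in the ratio of means (log2 change 3.71, SE 0.09, adjusted p 5.7e-14) and exceeded decitabine by 1.94 (SE 0.09, adjusted p 3.6e-10). In SNU475 EDN1 had 23.9 and 23.7 with the combination, 26.1 and 25.6 with decitabine and 19.9 and 20.4 with GSK-126, against 11.1 and 10.5 with DPBS. The combination there was 1.11 above DPBS (SE 0.09, adjusted p 6.4e-08) and not called different from decitabine (-0.11, SE 0.09, adjusted p 0.47). In SNU398 EDN1 stayed low, with 0.361 and 0.343 RPKM (36 and 43 reads) under the combination, against 0.0494 and 0.0225 with DPBS (ratio of means 9.79, log2 change 0.67, SE 0.09, adjusted p 2.1e-05). GSK-126 gave 0.0826 and 0.0170 in SNU398, which overlapped DPBS (adjusted p 0.83).

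F3 encodes tissue factor, the cell-surface trigger of blood clotting (ENSG00000117525, chromosome 1, 94994781 to 95007356), and it responded most in SNU475. It had 33.1 and 32.9 RPKM there with the combination, 27.9 and 27.8 with decitabine and 14.1 and 14.2 with GSK-126, against 4.72 and 5.39 with DPBS. The combination was 2.59 above DPBS (SE 0.08, adjusted p 7.8e-13) and 1.20 above GSK-126 (SE 0.08, adjusted p 1.1e-08). Its excess over decitabine was small (0.24, SE 0.08, adjusted p 0.038). That call was lost when any of the 4 libraries concerned was left out, with adjusted p of 0.12 to 0.14. In SNU398 F3 had 3.20 and 3.24 with the combination, 2.34 and 2.25 with decitabine and 2.09 and 2.18 with GSK-126, against 1.16 and 1.28 with DPBS (combination 1.12, SE 0.08, adjusted p 1.5e-08). In HepG2 it had 1.89 and 2.35, 1.65 and 1.43, and 1.72 and 1.66, against 1.22 and 1.09 with DPBS (combination 0.66, SE 0.08, adjusted p 1.5e-06). The decitabine change of F3 in HepG2 (0.30, adjusted p 0.0035) lost its call without the A library of decitabine (0.22, adjusted p 0.052).

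Among the genes that restrain YAP, AMOTL1 went the other way. It had 5.57 and 5.65 RPKM in SNU475 with the combination, 8.36 and 8.03 with decitabine and 7.60 and 7.48 with GSK-126, against 10.9 and 10.5 with DPBS. AMOTL1 fell in SNU475 with every treatment, by 0.87 on the log2 scale with the combination (SE 0.03, adjusted p 2.2e-11), 0.37 with decitabine and 0.48 with GSK-126. In SNU398 it fell by 0.27 with decitabine (adjusted p 1.6e-05) and by 0.10 with GSK-126 (adjusted p 0.021), and the combination was not called (0.09, adjusted p 0.053). The small GSK-126 change lost its call without the B library of DPBS (-0.09, adjusted p 0.13) or of GSK-126 (-0.08, adjusted p 0.14). In HepG2, where AMOTL1 was barely detected, it had 0.234 and 0.234 RPKM (66 and 71 reads) with the combination and 0.164 and 0.116 (61 and 44 reads) with decitabine. GSK-126 gave 0.00910 and 0.0103 (4 and 4 reads), against 0.0189 and 0.0274 with DPBS. The combination was 10.1 times DPBS in the ratio of means (log2 change 0.49, SE 0.03, adjusted p 7.1e-09), and GSK-126 was not called (adjusted p 0.42).

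AMOTL2, a relative of AMOTL1 that also binds and restrains YAP (ENSG00000114019, chromosome 3, 134074716 to 134094321), rose with every treatment in every line. In HepG2 it had 15.0 and 13.3 RPKM with the combination, 7.13 and 7.06 with decitabine and 9.85 and 9.69 with GSK-126, against 4.71 and 4.62 with DPBS (combination 1.5, SE 0.04, adjusted p 3e-13). In SNU398 it had 8.01 and 8.16 with the combination, against 5.11 and 4.92 with DPBS (0.64, SE 0.04, adjusted p 1.6e-08). In SNU475 it had 30.7 and 31.1 with the combination, 30.6 and 30.8 with decitabine and 39.3 and 37.4 with GSK-126, against 21.3 and 21.5 with DPBS. As with CTGF, GSK-126 alone exceeded the combination in SNU475 (combination minus GSK-126 -0.31, SE 0.04, adjusted p 5.4e-05). The 2 angiomotin-like genes thus moved in opposite directions in SNU475.

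LATS2, the kinase that phosphorylates YAP (ENSG00000150457, chromosome 13, 21547171 to 21635686), rose with the combination in all 3 lines, by less than 2-fold. It had 7.71 and 7.51 RPKM with the combination, against 6.04 and 5.38 with DPBS in HepG2 (0.39, SE 0.04, adjusted p 5.7e-07). The SNU398 values were 8.48 and 8.63, against 5.56 and 5.36 (0.60, SE 0.04, adjusted p 1.5e-08), and in SNU475 14.5 and 14.6, against 12.7 and 12 (0.23, SE 0.04, adjusted p 0.00019). Its GSK-126 changes of 0.20 in SNU398 and 0.15 in SNU475 were not firm. The first lost its call without scaling (0.04, adjusted p 0.47), and the second without the B library of DPBS (0.11, adjusted p 0.082).

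AJUBA (ENSG00000129474, chromosome 14, 23440383 to 23451851) had its highest values in HepG2, with 53.4 and 52.7 RPKM under the combination, 44.8 and 45.9 under decitabine and 78.7 and 79.8 under GSK-126, against 35.3 and 34.5 with DPBS. Here too the combination was above DPBS (0.60, SE 0.03, adjusted p 4.7e-10) and below GSK-126 alone (-0.57, SE 0.03, adjusted p 7.5e-10). In SNU475 it had 21.0 and 20.8 with the combination, 18.8 and 19.9 with decitabine and 21.2 and 21.0 with GSK-126, against 12 and 11.1 with DPBS (combination 0.83, SE 0.03, adjusted p 2.5e-11). SNU398 libraries had 8.91 and 9.13 with the combination, against 6.95 and 6.64 with DPBS (0.38, SE 0.03, adjusted p 2.2e-07).

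Whether the drugs acted together on these genes, the question that the title of the study raises, was examined by setting the combination against each drug alone. Against decitabine, all 7 tested genes were called higher with the combination in HepG2. There 55.8% of all genes were called in either direction, and 5817 of 19377 were higher. LATS2 was the smallest of these (0.12, SE 0.04, adjusted p 0.018), and it lost its call without the A library of decitabine (adjusted p 0.064), the B library of decitabine (0.061) or the A library of the combination (0.10). In SNU398 6 were called, all higher (20.5% of all genes called in either direction, 2413 of 19377 higher), and AJUBA was not (0.09, adjusted p 0.083). EDN1 in SNU398 (0.33, adjusted p 0.018) lost its call when any of the 4 libraries concerned was left out, with adjusted p of 0.066 to 0.090. In SNU475 3 were called (18.3% of all genes): AMOTL1 lower (-0.51, SE 0.03, adjusted p 1.7e-07), and AJUBA (0.11, adjusted p 0.033) and F3 (0.24, adjusted p 0.038) higher. Only AMOTL1 was still called there without the A library of decitabine, or without either combination library.

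Against GSK-126, the combination was called different for all 7 genes in HepG2 (65.7% of all genes called). It was higher for EDN1 (2.97, SE 0.09, adjusted p 6.4e-13, ratio of means 13.1) and AMOTL1 (0.53, ratio of means 24.1), both at low levels with GSK-126. It was also higher for AMOTL2 (0.51) and F3 (0.25), and lower for CTGF (-0.60), AJUBA (-0.57) and LATS2 (-0.15). F3 lost this call without the B library of the combination (0.12, adjusted p 0.16). When the HepG2 libraries were fitted alone, neither LATS2 (adjusted p 0.057) nor F3 (0.078) was called. In SNU398 all 7 were higher with the combination (50.1% of all genes called in either direction, 5157 of 19377 higher), from AJUBA (0.12, adjusted p 0.0068) to CTGF (0.78). AJUBA lost that call without the B library of GSK-126 (0.11, adjusted p 0.055) or of the combination (0.10, adjusted p 0.056). In SNU475 4 were called (35.9% of all genes): F3 higher (1.20), and AMOTL1 (-0.40), AMOTL2 (-0.31) and CTGF (-0.30) lower. By group mean, the combination was the highest of the 4 treatments for 6 of the 10 genes in HepG2, 9 in SNU398 and 2 in SNU475. GSK-126 was highest for the remaining 4 in HepG2, for CYR61 in SNU398 and for 4 in SNU475. Decitabine was highest for another 3 in SNU475, and DPBS for AMOTL1. These counts include CYR61, ANKRD1 and THBS1 and were not made over all genes, so nothing about the list is read from them.

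The interaction was taken as the log2 change of the combination less the sum of the log2 changes of decitabine and GSK-126, and is 0 where the effects of the drugs multiply. In HepG2 5 of the 7 tested genes were called (53.0% of all genes). CTGF (-1.33, SE 0.06, adjusted p 2e-10), AJUBA (-0.95, SE 0.05) and LATS2 (-0.41, SE 0.06) fell short of the product, while AMOTL1 (0.24, SE 0.05) and EDN1 (1.20, SE 0.13, adjusted p 1.4e-06) exceeded it. The EDN1 value depends on how low values are treated. With voom on the recovered reads, which adds no fixed RPKM, it was 0.36 and not called (adjusted p 0.46). In SNU398 2 were called (41.3% of all genes), AMOTL1 above the product (0.46, SE 0.05) and AJUBA below it (-0.18, SE 0.05, adjusted p 0.0071; without scaling -0.03, adjusted p 0.75). CTGF was called there as well (-0.14, adjusted p 0.085 with all libraries) without the B library of decitabine (-0.23, adjusted p 0.0021), GSK-126 (-0.19, 0.041) or the combination (-0.18, 0.048), and EDN1 (0.30, adjusted p 0.082) without the A library of GSK-126 (0.38, 0.045). In HepG2 AMOTL2 was called without the A library of the combination (-0.13, adjusted p 0.034). In SNU475 6 were called (36.4% of all genes in either direction), all below the product, as were 3227 of 19377 genes. They were F3 (-1.16, SE 0.11), EDN1 (-0.99, SE 0.13), CTGF (-0.94, SE 0.06), AMOTL2 (-0.82, SE 0.06), AJUBA (-0.73, SE 0.05) and LATS2 (-0.21, SE 0.06, adjusted p 0.0099). LATS2 lost that call without the B library of DPBS (-0.17, adjusted p 0.052). The genes given without a test had interactions of -0.78, -1.99 and -0.87 for CYR61, -0.65, 0.22 and -2.75 for ANKRD1 and -1.37, 0.42 and -1.53 for THBS1 in HepG2, SNU398 and SNU475. The ANKRD1 value in SNU398 turns sign with the 0.5 RPKM added before the log: from the ratios of group means, with nothing added, it was -0.91. From the same ratios AMOTL1 in HepG2 was 1.99 and EDN1 in HepG2 0.32.

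**Figure D4:**
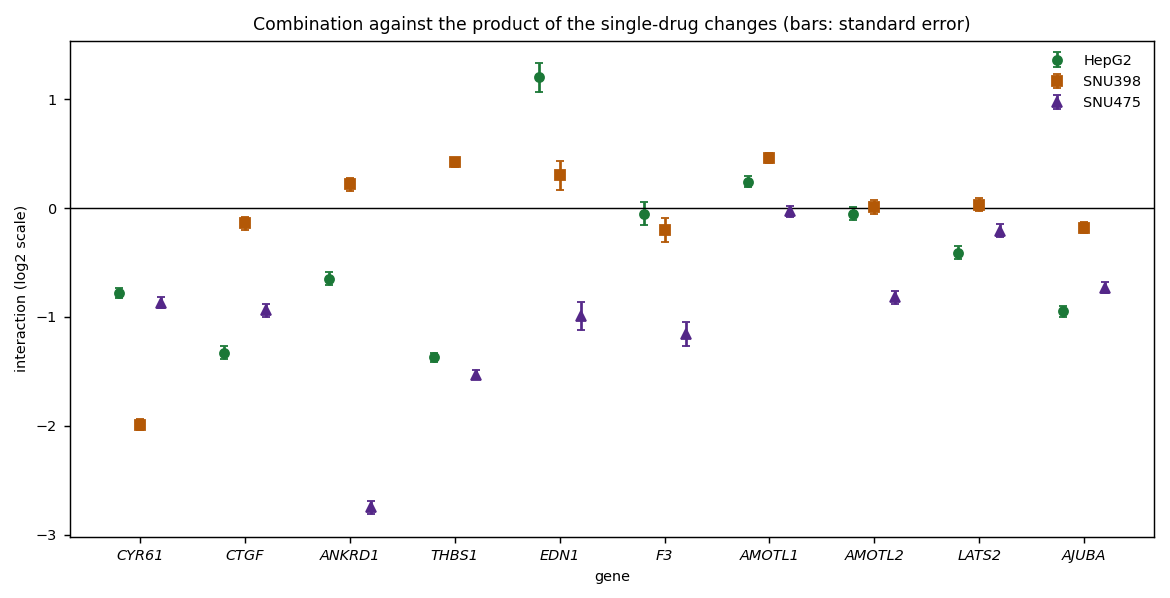
Interaction of the drugs for the 10 YAP target genes (log2 change of the combination less the sum of the single-drug log2 changes) in HepG2 (circles), SNU398 (squares) and SNU475 (triangles), with the standard error of the model as bars. The line at 0 marks effects that multiply. SNU475 values run from -2.75 for ANKRD1 to -0.03 for AMOTL1; the value of 0.22 for ANKRD1 in SNU398 is -0.91 from the ratios of group means.

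The response to the combination differed between lines for most of the genes. EDN1 responded less in SNU398 than in HepG2 (difference of the log2 changes -3.04, SE 0.13, adjusted p 8.3e-11) and less in SNU475 than in HepG2 (-2.60, SE 0.13, adjusted p 1.7e-10). Its ratio of means to DPBS was 48.8 in HepG2, 9.79 in SNU398 and 2.21 in SNU475. By that ratio SNU475 responded least, whereas the log2 change with 0.5 RPKM added was lowest in SNU398 (0.67, against 1.11 in SNU475). The SNU398 values rest on few reads. F3 responded more in SNU475 than in HepG2 (1.94, SE 0.11, adjusted p 5.4e-10) and than in SNU398 (1.48, SE 0.11, adjusted p 1.9e-08). AMOTL1 fell in SNU475 (-0.87) and rose in HepG2 (0.49), a difference of -1.36 (SE 0.05, adjusted p 5.8e-12). CTGF responded less in SNU475 than in SNU398 (-1.03, SE 0.06, adjusted p 3e-09). Of the 7 tested genes, 7 differed between SNU398 and HepG2, 7 between SNU475 and HepG2 and 6 between SNU475 and SNU398, where 58.1%, 64.6% and 56.5% of all genes did.

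RNA of the coactivator YAP1 was not called higher with the combination in any line. YAP1 averaged 21.2 ± 0.35 RPKM with the combination and 23.0 ± 1.0 with DPBS in HepG2 (SD, n = 2 each; -0.11, adjusted p 0.045), and 19.1 ± 0.076 and 19.9 ± 1.5 in SNU398 (-0.06, adjusted p 0.36). In SNU475 it averaged 27.6 ± 0.68 with the combination and 35.3 ± 1.3 with DPBS, a fall of 0.35 (-0.35, adjusted p 1.1e-05). WWTR1 fell in HepG2 (7.48 ± 0.11 with the combination, 9.36 ± 0.11 with DPBS, -0.30, adjusted p 1.1e-06) and in SNU475 (10.7 ± 0.20 and 12.8 ± 0.39, -0.25, adjusted p 1.6e-05). It rose in SNU398, with 5.36 ± 0.16 under the combination and 3.15 ± 0.097 under DPBS (0.68, adjusted p 5.4e-10). Of the DNA-binding partners, TEAD4 averaged 5.89 ± 0.11 RPKM with the combination and 2.40 ± 0.030 with DPBS in SNU475 (1.14, adjusted p 2.1e-10), and was not called in HepG2 (0.12, adjusted p 0.080) or SNU398 (0.03, adjusted p 0.76). TEAD3 rose in all 3 lines (0.67 in HepG2, 0.24 in SNU398 and 0.21 in SNU475). TEAD1 fell in HepG2 (-0.31), rose in SNU398 (0.34) and was not called in SNU475 (-0.06, adjusted p 0.18). TEAD2 rose in HepG2 (0.34), fell in SNU398 (-0.17, adjusted p 0.043) and was not called in SNU475 (adjusted p 0.98). The weakest calls rested on single libraries. YAP1 in HepG2 lost its call without either combination library, either GSK-126 library or the B library of DPBS (adjusted p 0.050 to 0.32). TEAD2 in SNU398 lost its call without any SNU398 library other than the A library of DPBS (adjusted p 0.053 to 0.30). Conversely, YAP1 was called lower in SNU398 without the B library of DPBS (adjusted p 0.040), TEAD4 higher in HepG2 without the B library of the combination (0.017) and TEAD1 lower in SNU475 without the B library of DPBS (0.029).

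**Figure D5:**
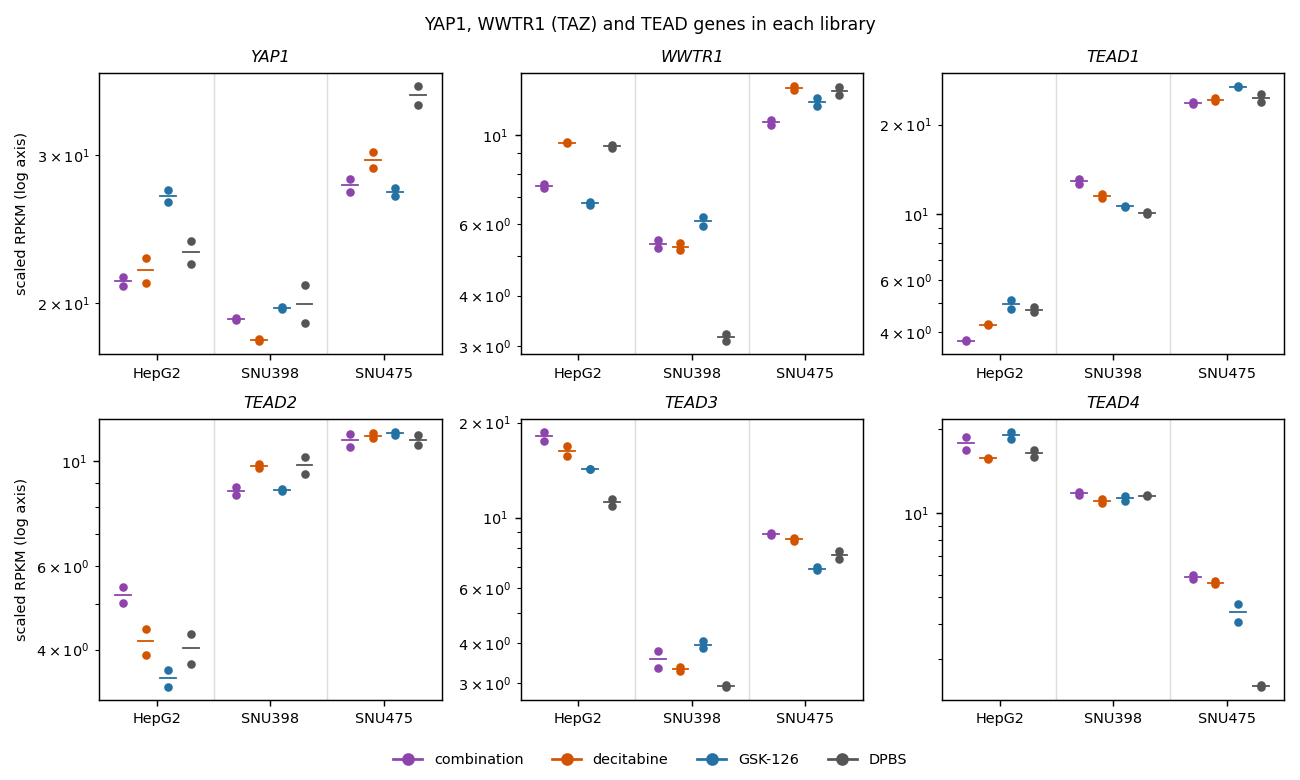
Scaled RPKM (log axis) of YAP1, WWTR1 (the gene of TAZ) and TEAD1 to TEAD4 in each library, by line and treatment, with a bar at the mean of each group of 2. YAP1 lies below DPBS after every treatment of SNU475, WWTR1 above DPBS after every treatment of SNU398, and TEAD4 above DPBS after every treatment of SNU475.

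Upstream, 14 genes were Hippo kinases and their regulators. Of these, 7 were higher and 6 lower with the combination in HepG2 (median log2 change 0.05, against 0.08 over all genes), 4 were higher and 10 not called in SNU398 (0.07, against 0.03), and 6 were higher and 6 lower in SNU475 (0.03, against -0.01). Of all genes, 40.6%, 28.9% and 25.3% were higher and 25.9%, 18.4% and 29.6% lower in the 3 lines in that order. With quantile normalization 5 of the 14 were higher and 8 lower in HepG2, and 1 called gene turned sign. WWC1, a scaffold also called KIBRA that promotes LATS activity, rose in HepG2 to 7.24 ± 0.056 RPKM with the combination, against 2.04 ± 0.035 with DPBS (1.61, adjusted p 4.8e-15). LATS1 fell there (-0.61, adjusted p 3.3e-08), as did MOB1A, a cofactor of the LATS kinases (-0.62, adjusted p 7.2e-08). RASSF1, which binds and regulates the MST kinases, rose in HepG2 (0.77, adjusted p 1.2e-09) and in SNU475 (0.94, adjusted p 2.7e-10). The protocadherin FAT1 rose in SNU398 (0.62, adjusted p 2.7e-10) and fell in SNU475 (-1.09, adjusted p 2.6e-13), where the kinase TAOK1 also fell (-0.91, adjusted p 8.8e-11). WTIP, a relative of AJUBA, rose in SNU398 (0.47) and SNU475 (0.43).

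Of 16 other published YAP and TAZ targets, 13 were higher and 3 not called with the combination in HepG2 (median log2 change 0.71, against 0.08 over all genes), and 13 higher and 3 lower in SNU398 (0.60, against 0.03). In SNU475 6 were higher and 8 lower (-0.09, against -0.01). Of all genes tested, 40.6%, 28.9% and 25.3% were higher and 25.9%, 18.4% and 29.6% lower in HepG2, SNU398 and SNU475. NUAK2, a kinase, had 6.28 ± 0.38 RPKM with the combination and 0.865 ± 0.069 with DPBS in HepG2 (2.31, adjusted p 3e-14), and fell in SNU475 (-0.36). MYOF, a membrane-repair protein, rose in HepG2 (1.45, adjusted p 3.5e-12) and SNU398 (1.26, adjusted p 8.1e-11). IGFBP3, a binding protein of insulin-like growth factors, rose in SNU398 (1.22) and SNU475 (1.27). FJX1 fell in SNU398 (-0.33, adjusted p 0.030; 0.057 to 0.15 when any of the 4 libraries concerned was left out) and rose in SNU475 (1.07). FOXF2, a forkhead factor, fell in SNU398 (-0.37), and CCDC80, a matrix protein, had 43.4 ± 0.051 RPKM with the combination and 80.3 ± 1.4 with DPBS in SNU475 (-0.88).

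Targets of SRF and MRTF are mostly genes of the contractile cytoskeleton. Of 10 such genes 10 were called higher with the combination in HepG2 (median log2 change 1.0), 7 in SNU398 (0.27) and 10 in SNU475 (1.0), beside 40.6%, 28.9% and 25.3% of all genes and medians over all genes of 0.08, 0.03 and -0.01; with quantile normalization 1 of the 10 in SNU475 turned sign. MYL9, a regulatory light chain of myosin, had 60.6 ± 1.8 RPKM with the combination and 3.64 ± 0.30 with DPBS in HepG2 (3.89), and 14.4 ± 1.3 and 0.196 ± 0.061 in SNU398 (4.42). TAGLN, an actin-binding protein of smooth muscle, had 122.3 ± 1.8 RPKM with the combination and 15.9 ± 1.2 with DPBS in SNU475 (2.91). ACTA2, smooth muscle actin, rose in SNU398 (1.01) and SNU475 (1.99), and FHL2 rose in HepG2 (1.56).

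Of 9 TGF-beta and SMAD targets, 1 was higher and 4 lower with the combination in HepG2 (median -0.09), 7 higher and 2 not called in SNU398 (0.46), and 5 higher and 2 lower in SNU475 (0.44). Over all genes the medians were 0.08, 0.03 and -0.01, with 40.6%, 28.9% and 25.3% called higher and 25.9%, 18.4% and 29.6% lower. ID1 fell in HepG2 (-0.66) and rose in SNU475 (1.05), LTBP2 rose in HepG2 (1.09), TGFBI rose in SNU398 (1.48), and SKIL (-0.67) and BHLHE40 (-0.19) fell in SNU475.

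Markers of other cell types moved with some of these changes. The 8 hepatocyte markers summed to 6904 and 6882 RPKM in HepG2 combination libraries, against 12090 and 12170 with DPBS; 1 of the 8 was called lower, TTR (-0.40), which lost its call when any of the 4 libraries concerned was left out (adjusted p 0.065 to 0.11), and all 8 were called when the 8 HepG2 libraries were fitted alone. Of 8 markers of fibroblasts, endothelium and leukocytes, 5 passed the filter. The sum of all 8 ran from 1.17 to 15.3 RPKM over the libraries. With the combination 3 of the 5 were higher in HepG2, 2 higher and 1 lower in SNU398 (PTPRC, a leukocyte surface phosphatase, -0.69), and 3 higher in SNU475. In the 3 lines in that order, 40.6%, 28.9% and 25.3% of all genes were higher, and 25.9%, 18.4% and 29.6% lower. With quantile normalization 1 of the 5 was higher and 1 lower in HepG2, where 1 called gene turned sign. COL1A1, a collagen of fibroblasts, had 0.579 ± 0.023 RPKM with the combination and 0.0104 ± 0.0085 with DPBS in HepG2, 4.58 ± 0.053 and 0.638 ± 0.041 in SNU398, and 12.7 ± 0.56 and 2.55 ± 0.070 in SNU475. The endothelial marker PECAM1 was listed at 0 in every library. Its only entry lay on a patch sequence outside the main chromosomes, so this value does not show that PECAM1 was absent. The part of these markers in the target genes' changes was not tested.

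Over the 24 libraries the 10 genes did not vary as one group, and the differences between lines, which all points of a line share, weigh heavily in any such likeness. CYR61 was most like AMOTL2 among them (Pearson r 0.967 over 24 libraries on the log2 scale), and ANKRD1 most like CTGF (0.935). For AJUBA r ran from -0.679 with AMOTL1 through 0.002 with CYR61 to 0.673 with ANKRD1 and 0.75 with CTGF. Over all genes tested, the patterns closest to that of CYR61 were those of MAPKAPK2 (0.977), PXDC1 (0.977), FOSL2 (0.968), AMOTL2 (0.967) and SRGAP1 (0.966). When the 12 groups were put in order of level, all 11 neighbouring pairs had separate libraries for CYR61, ANKRD1, THBS1 and AMOTL1. For CTGF, AMOTL2 and AJUBA 1 of the 11 neighbouring pairs overlapped, and for LATS2, F3 and EDN1 2 did. The same count was not made over all genes, so it sets none of these genes apart.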

How the data were processed

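Total RNA from 24 libraries was isolated with Trizol and DNase I, freed of ribosomal RNA, built into stranded libraries and read on a NextSeq 500 (single reads, 75 bases), per the labels' protocols. HISAT2, featureCounts and hg19 are named in the submitters' processing notes, without versions. The authors deposited RPKM per gene, rounded to 3 decimals. Whole reads were recovered from the steps between low values (100% whole within 0.15 reads). Median-of-ratios factors (0.847 to 1.158) from the 8211 genes at RPKM 1 or more throughout brought the libraries to one scale. In limma 3.58.1 (R 4.3.3), log2(scaled RPKM + 0.5) of 19377 genes was fitted to 12 group means (12 residual degrees of freedom; empirical Bayes moderation, robust and with a trend). All tests were two-sided, with Benjamini-Hochberg adjustment over all genes of a comparison and a threshold of 0.05. The procedure was tested on simulated data. The 10 genes and the lists set beside them were chosen with earlier results of these data known. Outside the 10 genes, YAP1, WWTR1 and TEAD1 to TEAD4 are named always, and from each other list the 2 highest and 2 lowest called genes with separate libraries in a comparison. A gene that this rule names is not reported here. The genes most like CYR61 are the 5 with the highest Pearson r. Promoters are RefSeq windows on GRCh38.p14, the first listed for each gene, matched by Ensembl gene identifier or, where that found no gene, by symbol or synonym. Alternatives were pseudocounts of 0.1 and 1, no filter, no scaling, quantile normalization, each line alone, a replicate block, leaving out each library, and voom on the recovered reads.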

Additional observations from a re-analysis of the deposited data

Results flagged for a closer look

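The combination's effect (combination minus DPBS on the log2 scale) differed between lines by a test of the difference itself in 20 of 21 tests over the 7 tested genes. Of all genes, 58.1% differed for SNU398 minus HepG2, 64.6% for SNU475 minus HepG2 and 56.5% for SNU475 minus SNU398. As SNU475 minus SNU398 follows from the other differences, the 21 tests are not separate. SNU398 minus HepG2 was 0.36 for CTGF, 0.22 for LATS2 and 0.46 for F3, and -0.40 for AMOTL1, -0.86 for AMOTL2, -0.21 for AJUBA and -3.04 for EDN1. SNU475 minus HepG2 was 0.23 for AJUBA and 1.94 for F3, and -0.66 for CTGF, -1.36 for AMOTL1, -0.98 for AMOTL2, -0.16 for LATS2 and -2.60 for EDN1. SNU475 minus SNU398 was 0.45 for AJUBA, 1.48 for F3 and 0.44 for EDN1, and -1.03 for CTGF, -0.96 for AMOTL1 and -0.38 for LATS2. The last difference of EDN1 turned round when low values were treated otherwise. The LATS2 difference of SNU475 minus HepG2 lost its call without the A library of SNU475 combination (-0.16, adjusted p 0.057), SNU475 DPBS (-0.12, 0.12) or HepG2 combination (-0.14, 0.075), or without the B library of HepG2 DPBS (-0.08, 0.14).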

How the results depend on the processing

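The labels do not say what libraries of the same letter share. The A minus B differences correlated between groups of a line from -0.118 to 0.244, the highest between DPBS and GSK-126 in SNU398. With the letter as a replicate block, EDN1 became called for combination minus GSK-126 in SNU475 (0.24, adjusted p 0.034) and AMOTL2 for SNU398 minus HepG2 (0.09, adjusted p 0.039); no other call changed. EDN1 for combination minus GSK-126 in SNU475 was also called with a pseudocount of 1 (adjusted p 0.0097), without scaling (0.036), with SNU475 fitted alone (0.0024) and with voom (3.2e-05). AMOTL1 for combination minus DPBS in SNU398 was called with a pseudocount of 1 (0.08, adjusted p 0.028) and with voom (0.10, adjusted p 0.033). In SNU398 alone, 4 rather than 2 interactions were called. With no filter, 1 rather than 3 genes differed between combination and decitabine in SNU475; leaving out 1 library gave 1 to 3. Of genes called at least 2-fold, voom gave 2 rather than 1 for decitabine in HepG2, 4 rather than 2 for GSK-126 in HepG2 (4 also with a pseudocount of 0.1) and 1 rather than 0 for decitabine in SNU398 (1 also with a pseudocount of 0.1). That last count ran from 0 to 1 when 1 library was left out, with 1 without the B library of decitabine. With a pseudocount of 1 the count for the combination in SNU398 was 1 rather than 2. Over all alternatives other than leaving out a library, it ran from 1 to 3. The count for the combination in HepG2, 3 in the main fit, ran from 3 to 4 over the same alternatives. LATS2 turned to 0.26 for SNU398 minus HepG2 without scaling. The combination effect of EDN1 in SNU475 minus SNU398 turned to -0.60 with a pseudocount of 0.1 (adjusted p 0.064) and to -2.10 with voom (adjusted p 0.00037). The cause of these changes was not tested. Counts of under about 20 reads, in AMOTL1 of HepG2, EDN1 of SNU398, and ANKRD1 of SNU398 (19 and 18 reads) and EDN1 of HepG2 (15 and 16 reads) with DPBS, limit what can be said of those genes.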

Other observations

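Of the 10 SRF and MRTF targets, 9 were higher and 1 lower with decitabine in HepG2 (median log2 change 0.41), 4 higher in SNU398 (0.11) and 10 higher in SNU475 (1.03). With GSK-126, 6 were higher and 2 lower in HepG2 (0.22), 4 higher and 2 lower in SNU398 (0.04) and 10 higher in SNU475 (0.72). The SNU398 count for GSK-126 was 3 higher and 4 lower without scaling, where 1 called gene turned sign, and 2 higher and 3 lower with quantile normalization. That normalization also gave 6 higher with decitabine in HepG2, 9 higher and 1 lower with decitabine in SNU475 and 8 higher with GSK-126 in SNU475, with 1 called gene turned in each. Of the 9 TGF-beta and SMAD targets, GSK-126 lowered 6 and raised 1 in HepG2 (median -0.98), while it raised 7 in SNU398 (0.37) and raised 3 and lowered 2 in SNU475 (-0.05). Of the 16 other YAP and TAZ targets, decitabine raised 12 in HepG2 (0.42; 9 higher and 1 lower with quantile normalization, 1 turned), raised 10 and lowered 2 in SNU398 (0.34), and raised 8 and lowered 5 in SNU475 (0.10). Over all genes tested the medians of these comparisons ran from -0.02 to 0.07. In HepG2, SNU398 and SNU475, 35.9%, 23.4% and 24.2% of all genes were higher and 18.3%, 15.4% and 27.3% lower with decitabine, and 31.0%, 30.0% and 21.5% were higher and 21.7%, 22.4% and 28.5% lower with GSK-126. Each drug was set against the same DPBS libraries as the combination.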
